A study of Mus musculus with 12 samples.

Results

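The renin-angiotensin system is a hormone cascade that sets blood pressure and salt balance, and the kidney is both its main source of renin and one of its targets. Renin, released by granular cells of the juxtaglomerular apparatus, cuts angiotensinogen to angiotensin I, and angiotensin-converting enzyme turns that into angiotensin II, which acts on type 1 receptors. Other peptidases of the tubule brush border shorten or redirect these peptides, and angiotensin 1-7 acts on the Mas receptor. The 9 genes described here are *Ren1*, *Agt*, *Ace*, *Agtr1a*, *Agtr1b*, *Enpep*, *Mme*, *Mas1* and *Atp6ap2*, chosen by name from the 54532 genes of the count table. They encode the enzyme renin, its substrate, the converting enzyme, both type 1 receptors, aminopeptidase A, neprilysin, the Mas receptor and the prorenin receptor.

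RNA-seq read counts were analysed from the whole kidneys of 12 C57BL/6 mice, each 18 days old, in 4 groups of 3. The noncystic groups were *Pkd1* RC/F mice without Cre (called *Pkd1*RC/+), with *Pkd2*+/+ or with *Pkd2*Δ17/Δ17, and the cystic groups were the same 2 genotypes with Ksp-Cre (called *Pkd1*RC/-). All 4 groups carry the hypomorphic RC allele of *Pkd1* and a floxed second allele, which Ksp-Cre deletes in tubule epithelium and not in the juxtaglomerular or vascular cells that make renin. Δ17 is a CRISPR deletion of the miR-17 binding motif in the *Pkd2* 3′-UTR. The comparisons asked what cystic disease does to kidney transcripts and what removing the motif does to them in cystic and noncystic kidneys.

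The longest annotated 3′-UTR of each of the 9 genes was searched for the kind of motif deleted from *Pkd2*, and their other transcripts were not. The miR-17 seed, bases 2 to 8 of the microRNA, pairs with GCACTTT, and this was found in the longest annotated 3′-UTR of 0 of the 9 genes, against 2280 of 16821 coding genes tested (13.6%). The microRNA (seed in capitals) and the 30 bases around its match in *Pkd2*, which starts at base 133 of that 3′-UTR (match in capitals), are shown because this motif is what separates the Δ17 groups from the others.
mmu-miR-17-5p: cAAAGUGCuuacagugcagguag
Pkd2 site: tataattttctGCACTTTaatttattttac

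Renin and its substrate are the start of the cascade, so a stretch of each is shown too. The first is from the *Ren1* promoter, at chr1:133350599-133350628 on the forward strand of GRCm38.p6 (RefSeq), with the letters AATAAATCA in capitals. This is the binding sequence known for HOX and PBX factors in the mouse renin promoter, and it begins 64 bases before the RefSeq start of the gene (position -64). The window from 250 bases before to 50 bases after the start was searched on both strands, and 105 of 32851 promoters (0.32%) hold these letters. Of the 9 genes, 8 had a promoter sequence. The second is the 10 codons that encode angiotensin I in exon 2 of *Agt*, on the reverse strand of GRCm38 at chr8:124564450-124564479 (GENCODE M21), written 5′ to 3′ in the sense of the mRNA. It starts at codon 30 of the annotated reading frame.
Ren1 promoter: ggccctggggtAATAAATCAaagcagagcc
Agt codons: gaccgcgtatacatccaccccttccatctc

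Total counts per mouse ran from 18800307 to 24453033. *Pkd2* mRNA was higher with the deletion in cystic kidneys, by 0.53 ± 0.08 (SE) on the log2 scale (edgeR adjusted p = 0.00249), and differed by 0.40 ± 0.08 in noncystic ones (edgeR adjusted p = 0.771, unadjusted p = 8.21e-05). The log2 change of *Pkd1* between cystic and noncystic *Pkd2*+/+ kidneys was 0.26 ± 0.11 (edgeR adjusted p = 0.0775). The labels give no sex, and *Xist* was above 100 CPM in 6 of the 12 mice, with 1 or 2 such mice in each group. The markers matched whole kidney, but 3 cystic libraries stood apart. Mice 27 (cystic *Pkd2*+/+) and 30 (cystic *Pkd2*Δ17/Δ17) held adrenal transcripts, with 7 adrenal markers summing to 65.5 and 481 CPM against 4.05 to 7.26 CPM in the other 10 mice. Mice 25 and 30 held the liver transcript *Alb*, at 355 and 91.2 CPM against 16.4 CPM in mouse 19 and at most 1.61 CPM elsewhere. The tests of the 9 genes and of the named genes of the lists were therefore also computed without mice 27 and 30, without 25 and 30, and without all 3. Without all 3 the cystic *Pkd2*+/+ group holds mouse 26 alone, so its values in that fit rest on that mouse. The list counts, summed markers and levels were computed on all 12 mice. Of the 24642 genes tested, 14.2% were lower and 16.9% higher in cystic than in noncystic *Pkd2*+/+ kidneys. Scaled to library totals alone the split was 6251 higher and 2468 lower, against 4170 and 3495 with TMM scaling, and the median log2 change of all genes moved from 0.02 to 0.18. With *Pkd2*Δ17/Δ17 that median moved from -0.0032 to 0.15. In that comparison, with TMM scaling, 10.2% of the genes tested were lower and 3164 of 24642 were higher. With the deletion in cystic kidneys 1.19% were higher and 256 of 24642 were lower. These values are the background of the list counts below.

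Most of the 9 genes were lower in cystic *Pkd2*+/+ kidneys. Between noncystic and cystic *Pkd2*+/+ kidneys, 7 of the 9 genes fell (*Ren1*, *Agt*, *Ace*, *Agtr1a*, *Enpep*, *Mme* and *Atp6ap2*), against 14.2% of all genes tested. Their median change, over all 9, was -0.68 on the log2 scale, and the median of all genes was 0.02. With the Δ17 deletion, 3 of the 9 fell between noncystic and cystic kidneys (*Ren1*, *Agtr1a* and *Enpep*), against 10.2% of all genes, with a median of -0.21 against -0.0032. Both comparisons of the cystic groups with their controls use different mice, but the cystic *Pkd2*+/+ mice also serve in the comparison of the 2 cystic groups. In whole kidneys, fewer cells of a type and less RNA per cell cannot be told apart.

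**Figure D1:**
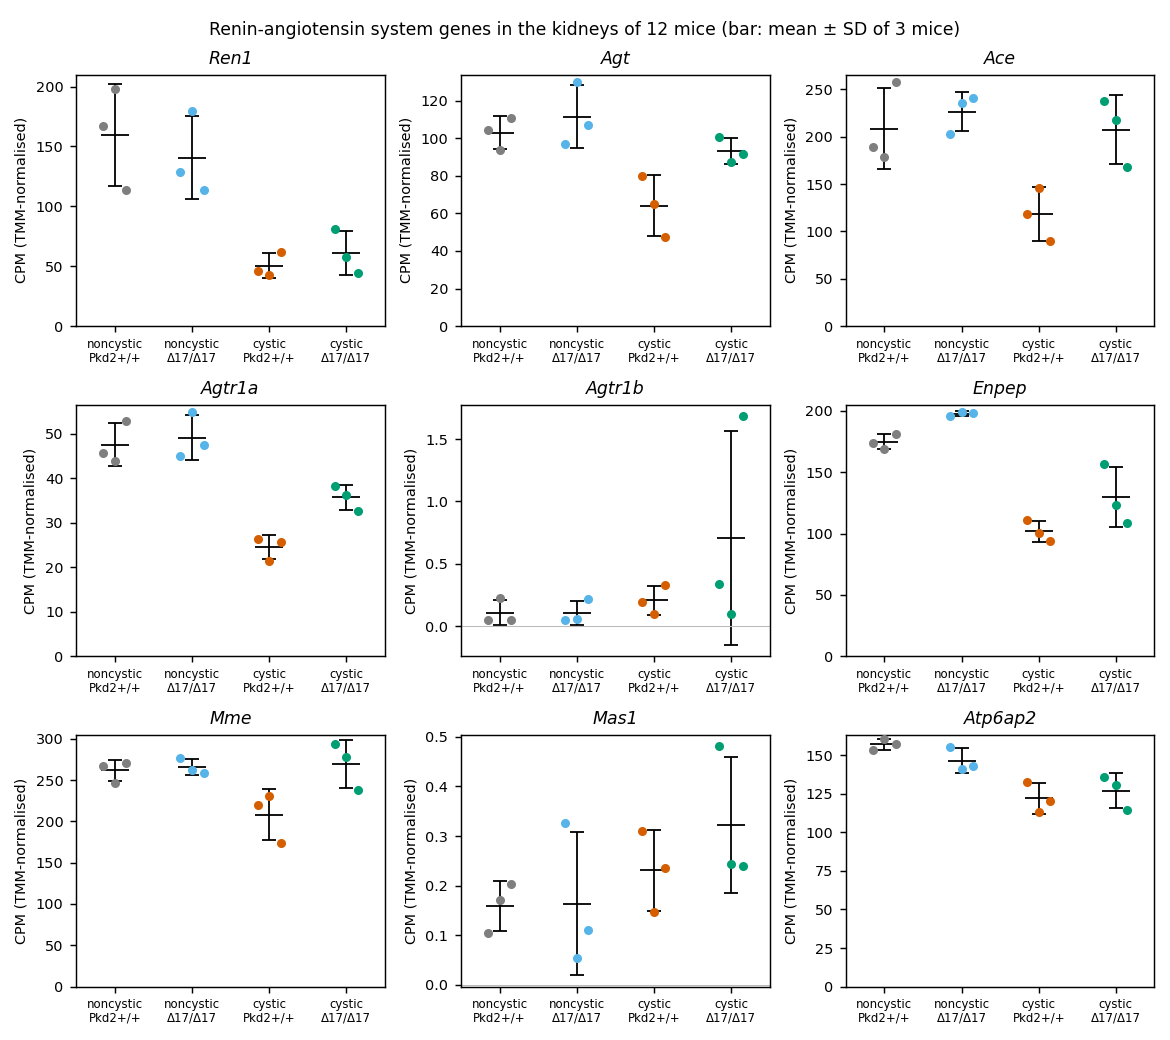
TMM-normalised counts (CPM) of the 9 genes in each of 12 kidneys, 1 point per mouse, with the mean ± SD of 3 mice per group. *Ren1* lies between 113 and 198 CPM in the 6 noncystic mice and between 42.6 and 81.0 CPM in the 6 cystic mice, while *Agtr1a* in the cystic Δ17/Δ17 mice (32.7 to 38.3 CPM) lies between the cystic *Pkd2*+/+ mice and the noncystic mice.

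Renin showed the largest fall of the 7. *Ren1* (ENSMUSG00000070645, GRCm38 chromosome 1, 133350510 to 133360325, forward strand) was at 167, 198 and 114 CPM in the noncystic *Pkd2*+/+ kidneys and at 46.3, 42.6 and 62.2 CPM in the cystic ones. In the Δ17/Δ17 kidneys it was at 129, 180 and 113 CPM without cysts and at 81.0, 57.7 and 44.3 CPM with them. All 6 cystic kidneys were below all 6 noncystic kidneys. The fall was 3.16-fold in *Pkd2*+/+ kidneys (log2 -1.66 ± 0.23 SE, edgeR adjusted p = 2.65e-05) and 2.31-fold in Δ17/Δ17 kidneys (log2 -1.21 ± 0.23, edgeR adjusted p = 0.000774). The cystic groups overlapped each other, and the effect of the deletion on *Ren1* did not pass the test in cystic kidneys (log2 0.28 ± 0.23, edgeR adjusted p = 0.655) or in noncystic ones (log2 -0.18 ± 0.22, edgeR adjusted p = 0.895). Mouse adrenal glands can also express *Ren1*. Without mice 27 and 30 its fall was -1.84 in *Pkd2*+/+ and -1.02 in Δ17/Δ17 kidneys, past the threshold in both, and the difference between the cystic groups moved from 0.28 to 0.64 (edgeR adjusted p = 0.262).

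Angiotensinogen, the substrate of renin, fell less. *Agt* (ENSMUSG00000031980, chromosome 8, 124556534 to 124569706, reverse strand) was at 104, 93.6 and 111 CPM in noncystic and 80.1, 64.8 and 47.4 CPM in cystic *Pkd2*+/+ kidneys. In Δ17/Δ17 kidneys it was at 97.2, 130 and 107 CPM without cysts and at 101, 87.6 and 91.5 CPM with them. The *Pkd2*+/+ groups did not overlap, whereas the Δ17/Δ17 groups did. The log2 change was -0.68 ± 0.15 in the first comparison (edgeR adjusted p = 0.00159) and -0.26 ± 0.14 in the second (edgeR adjusted p = 0.242). Between the cystic groups all 3 Δ17/Δ17 mice were above all 3 *Pkd2*+/+ mice, by 0.54 ± 0.15, which missed the threshold (edgeR adjusted p = 0.0665). The liver is the main source of *Agt* in the body, and the liver transcript *Alb* was high in mice 25 and 30. The 5 liver markers as a list split, with 2 higher and 2 lower in cystic than in noncystic *Pkd2*+/+ kidneys. Without mice 25 and 30 the difference of *Agt* between the cystic groups was 0.75 (edgeR adjusted p = 0.00517). It was 0.38 without mice 27 and 30 (edgeR adjusted p = 0.26). The part of liver or adrenal tissue in these values was not tested.

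Of the 7 genes above 1 CPM in every mouse, angiotensin-converting enzyme differed most between the cystic groups. *Ace* (ENSMUSG00000020681, chromosome 11, 105967945 to 105989964, forward strand) was at 119, 146 and 89.8 CPM in cystic *Pkd2*+/+ kidneys and at 238, 218 and 168 CPM in cystic Δ17/Δ17 kidneys. The noncystic kidneys held 189, 179 and 257 CPM with *Pkd2*+/+ and 203, 236 and 240 CPM with Δ17/Δ17. Thus the 3 cystic *Pkd2*+/+ kidneys lay below the other 9, and the cystic Δ17/Δ17 kidneys overlapped both noncystic groups. *Ace* fell with cysts in *Pkd2*+/+ kidneys (log2 -0.82 ± 0.17, edgeR adjusted p = 0.00115), and its change in Δ17/Δ17 kidneys was -0.12 ± 0.17 (edgeR adjusted p = 0.669). Without mice 25, 27 and 30, which leaves mouse 26 alone in the cystic *Pkd2*+/+ group, the log2 change in *Pkd2*+/+ kidneys was -0.51. The exons of *Ace* overlap those of *Gm11651* on the other strand, and the strand setting of the counting is not given in the sources used here, so the counts of the pair cannot be told apart.

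The 2 type 1 receptors differed widely in level. *Agtr1a* (ENSMUSG00000049115, chromosome 13, 30336441 to 30382867, forward strand), the main type 1 receptor of the mouse kidney, was at 45.7, 43.9 and 53.0 CPM in noncystic and 26.3, 21.5 and 25.8 CPM in cystic *Pkd2*+/+ kidneys. In Δ17/Δ17 kidneys it was at 45.1, 54.9 and 47.5 CPM and at 38.3, 36.2 and 32.7 CPM. The 3 levels (noncystic, cystic Δ17/Δ17, cystic *Pkd2*+/+) did not overlap. *Agtr1a* fell 1.94-fold with cysts in *Pkd2*+/+ kidneys (log2 -0.95 ± 0.11, edgeR adjusted p = 3.88e-06) and 1.38-fold in Δ17/Δ17 kidneys (log2 -0.46 ± 0.11, edgeR adjusted p = 0.00418).

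*Agtr1b* (ENSMUSG00000054988, chromosome 3, 20314473 to 20367177, reverse strand), the type 1 receptor known from the mouse adrenal gland and pituitary, had 1 to 7 counts in 11 of the 12 mice and 35 counts (1.68 CPM) in mouse 30. That is the mouse with 481 CPM of adrenal markers, including 36.1 CPM of *Cyp11b2*, the aldosterone synthase of the adrenal cortex, against 1.98 CPM in mouse 27 and at most 0.163 CPM in the others. The log2 difference between cystic and noncystic Δ17/Δ17 kidneys was 2.62 ± 0.95 (edgeR adjusted p = 0.0566). It was 0.95 without mouse 30 (edgeR adjusted p = 0.582), and the part of adrenal tissue was not tested. The coding sequences of *Agtr1a* and *Agtr1b*, 1080 bases each, are identical at 90.8% of positions, with a longest identical run of 66 bases. Whether any reads were shared between the 2 genes was not tested, and the low counts of *Agtr1b* are uncertain.

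The plot of adrenal and liver markers sets the 2 library features beside the 2 genes whose tissue sources they could touch.

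**Figure D2:**
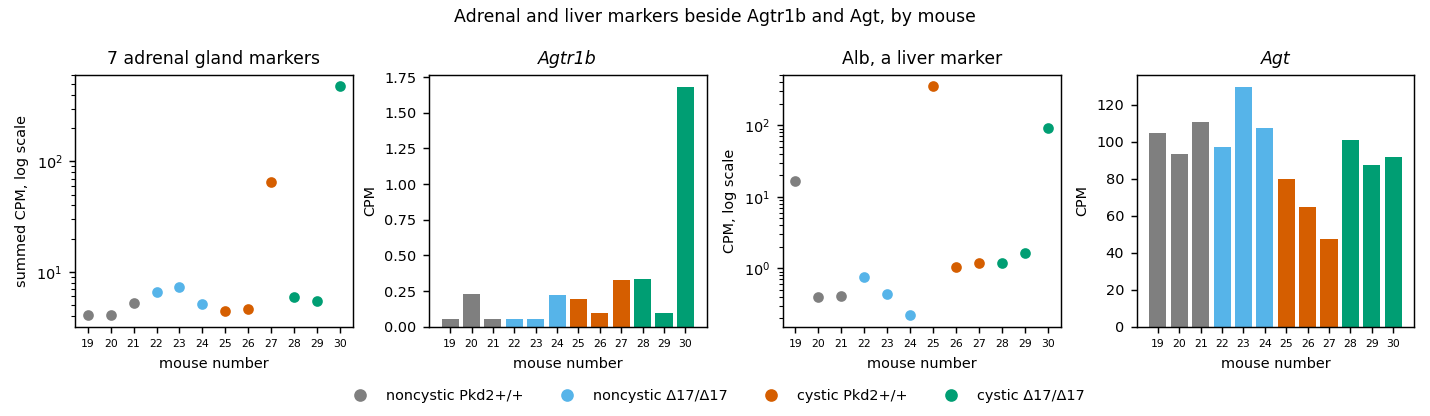
Summed CPM of 7 adrenal markers (log axis), CPM of *Agtr1b* (bars from 0), CPM of *Alb* (log axis) and CPM of *Agt* (bars from 0) in each mouse, by mouse number and coloured by group. Mouse 30 is highest for adrenal markers (481 CPM) and for *Agtr1b* (1.68 CPM), and mouse 25 is highest for *Alb* (355 CPM) while its *Agt* (80.1 CPM) is below that of the noncystic mice.

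The angiotensin-degrading peptidases of the brush border fell with cysts to different extents. *Enpep* (ENSMUSG00000028024, chromosome 3, 129269175 to 129332720, reverse strand) encodes aminopeptidase A, which turns angiotensin II into angiotensin III. It was at 174, 169 and 181 CPM in noncystic and 111, 101 and 93.8 CPM in cystic *Pkd2*+/+ kidneys, and at 196, 199 and 198 CPM and 157, 123 and 109 CPM in Δ17/Δ17 kidneys. All 6 cystic kidneys were below all 6 noncystic ones, and the cystic groups overlapped by a narrow margin (111 CPM in mouse 25 and 109 CPM in mouse 30). The fall was -0.78 ± 0.11 on the log2 scale in *Pkd2*+/+ kidneys (edgeR adjusted p = 2.47e-05) and -0.61 ± 0.11 in Δ17/Δ17 kidneys (edgeR adjusted p = 0.000433).

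*Mme* (ENSMUSG00000027820, chromosome 3, 63241537 to 63386030, forward strand) encodes neprilysin, which can make angiotensin 1-7 from angiotensin I. It was at 268, 246 and 271 CPM in noncystic and 220, 231 and 174 CPM in cystic *Pkd2*+/+ kidneys, a change of -0.33 ± 0.10 on the log2 scale (edgeR adjusted p = 0.0222). In Δ17/Δ17 kidneys it was at 276, 263 and 258 CPM without cysts and 293, 278 and 238 CPM with them, overlapping throughout (0.02 ± 0.10, edgeR adjusted p = 0.926). The fall in *Pkd2*+/+ kidneys was the least stable of the 7. It was no longer past the threshold without mouse 27 (-0.22, edgeR adjusted p = 0.127), without mouse 19 (-0.31, edgeR adjusted p = 0.067) or without mouse 21 (-0.32, edgeR adjusted p = 0.0537). The same held without mice 27 and 30 (-0.21, edgeR adjusted p = 0.0923), with library totals (-0.17, edgeR adjusted p = 0.204) and with limma-trend (-0.18, limma adjusted p = 0.177). Without mice 25, 27 and 30, which leaves mouse 26 alone in the cystic *Pkd2*+/+ group, the change was -0.18.

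*Atp6ap2* (ENSMUSG00000031007, chromosome X, 12587801 to 12617049, forward strand) encodes the prorenin receptor, which is also an accessory subunit of the vacuolar proton pump. It was at 153, 161 and 157 CPM in noncystic and 133, 113 and 121 CPM in cystic *Pkd2*+/+ kidneys, and at 156, 141 and 143 CPM and 136, 131 and 114 CPM in Δ17/Δ17 kidneys. Neither pair of groups overlapped. The log2 changes were small, -0.36 ± 0.08 (edgeR adjusted p = 0.00255) and -0.21 ± 0.08 (edgeR adjusted p = 0.0851), and the first missed the threshold with library totals (-0.20, edgeR adjusted p = 0.0521).

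*Mas1* (ENSMUSG00000068037, chromosome 17, 12841079 to 12868143, reverse strand), the receptor of angiotensin 1-7, had 1 to 10 counts per mouse and did not pass the test in any of the 5 contrasts. At this depth its groups, between 0.0546 and 0.481 CPM, cannot be separated.

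Per kilobase of annotated exon, *Ren1* was the highest of the 9 in noncystic *Pkd2*+/+ kidneys at 96.2 ± 25.7 CPM per kb (SD, n = 3). *Atp6ap2* (60.0 ± 1.4) and *Agt* (54.4 ± 4.6) came next, followed by *Ace* (39.4 ± 8.1), *Enpep* (37.1 ± 1.3), *Mme* (22.7 ± 1.1) and *Agtr1a* (17.1 ± 1.7), and then *Mas1* (0.061 ± 0.019) and *Agtr1b* (0.051 ± 0.048). *Atp6ap2* and *Agt* did not differ beyond their spread, nor did *Ace* and *Enpep*, or *Mas1* and *Agtr1b*. The length used joins all annotated exons of a gene, 11542 bases for *Mme*, 5287 for *Ace* and 1657 for *Ren1*, and the order depends on it. Without division by length *Mme* was the highest of the 9 in this group, at 262 CPM. In cystic *Pkd2*+/+ kidneys the order began with *Atp6ap2* (46.7 ± 3.8), followed by *Agt* (33.9 ± 8.7) and *Ren1* (30.4 ± 6.3), whose spreads overlapped.

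In cystic kidneys 2 of the 9 genes were higher with the Δ17 deletion, *Ace* and *Agtr1a*, against 1.19% of all genes tested that were higher. All 9 changes were above 0, with a median of 0.45 on the log2 scale against 0.00075 for all genes. That median is the value of *Mas1* (0.45 ± 0.64), and *Agtr1b* (1.74 ± 0.84) is also among the 9. Both had few counts and did not pass the test. The cystic *Pkd2*+/+ mice that set the baseline are also the mice in which 7 of the genes were low. *Ace* was higher by 0.81 ± 0.17 (1.76-fold, edgeR adjusted p = 0.0194) and *Agtr1a* by 0.54 ± 0.11 (1.46-fold, edgeR adjusted p = 0.0172). For *Mme* (0.37 ± 0.10, edgeR adjusted p = 0.0761), *Enpep* (0.35 ± 0.11, edgeR adjusted p = 0.105) and *Atp6ap2* (0.06 ± 0.08, edgeR adjusted p = 0.827) the difference did not pass. Without mice 25 and 30 it did for *Mme* (0.50, edgeR adjusted p = 0.0181) and *Enpep* (0.53, edgeR adjusted p = 0.00723). Without mice 27 and 30 neither passed. Over the 18 alternatives *Mme* passed in 6 and *Enpep* in 4. Among the cystic mice with high *Xist*, *Ace* was at 119 and 146 CPM in *Pkd2*+/+ and 238 CPM in Δ17/Δ17 kidneys, and among those with low *Xist* at 89.8 CPM against 218 and 168 CPM. *Agtr1a* was likewise at 26.3 and 21.5 against 38.3 CPM, and at 25.8 against 36.2 and 32.7 CPM.

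Both calls rested on few mice, and that of *Ace* was also lost when the cystic groups were fitted alone (edgeR adjusted p = 0.0579). *Ace* was at an edgeR adjusted p of 0.096 without mouse 27, 0.121 without mouse 28 and 0.0917 without mouse 29, and *Agtr1a* at 0.0535 without mouse 26, 0.0551 without mouse 27, 0.1 without mouse 28 and 0.0769 without mouse 29. When any 1 of the 6 cystic mice was left out, the log2 difference stayed between 0.65 and 0.99 for *Ace* and between 0.46 and 0.60 for *Agtr1a*. Without mice 25, 27 and 30 the difference was 0.79 for *Agtr1a* and 0.64 for *Ace*. That fit leaves mouse 26 alone in the cystic *Pkd2*+/+ group. Mouse 26 had the lowest *Agtr1a* and the highest *Ace* of that group.

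**Figure D3:**
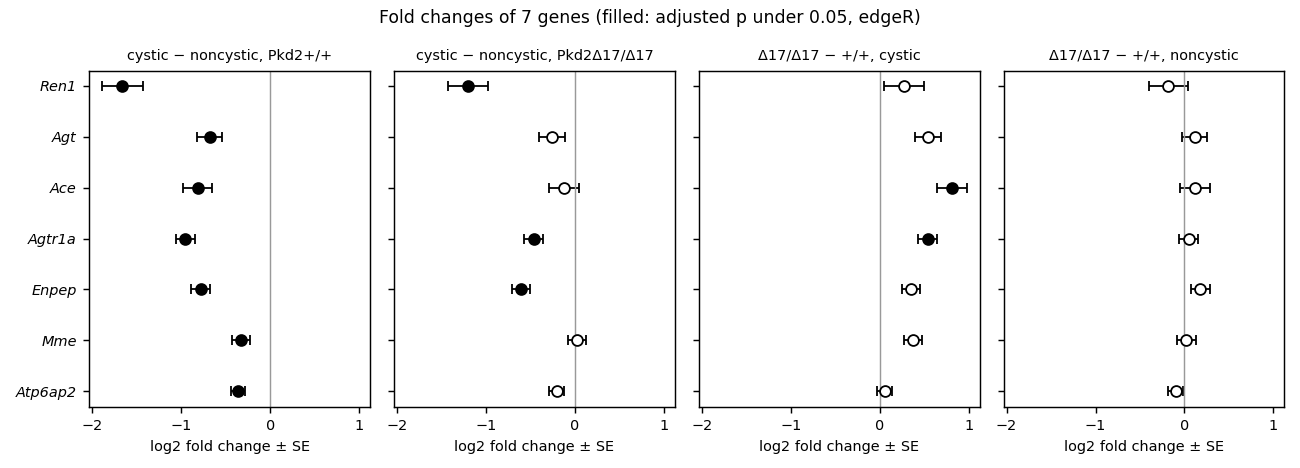
Log2 fold changes with their standard errors for the 7 genes above 1 CPM in every mouse, in 4 comparisons, from the fit across all genes. Filled points passed the adjusted threshold: 7 for cystic against noncystic *Pkd2*+/+ kidneys, 3 with Δ17/Δ17, 2 for the deletion in cystic kidneys and 0 in noncystic kidneys.

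In noncystic kidneys the deletion changed 0 of the 9 genes by edgeR, with 0 of 9 at an unadjusted p under 0.05 and 0 by DESeq2 and by limma-trend, against 0.00406% of all genes. The largest of these 9 differences with more than 10 counts per mouse was that of *Ren1* (-0.18), followed by *Enpep* (0.18 ± 0.11, edgeR adjusted p = 0.779). The interaction, which tests whether the effect of the deletion differs between cystic and noncystic kidneys, was past the adjusted threshold for 0 of 9 genes in edgeR, DESeq2 and limma-trend, against 0.0122% of all genes. At an unadjusted p under 0.05 it held 3 genes. These were *Agtr1a* (0.49 ± 0.15, edgeR adjusted p = 0.357), *Ace* (0.69 ± 0.24, edgeR adjusted p = 0.418) and *Mme* (0.35 ± 0.15, edgeR adjusted p = 0.536). A different effect of the deletion in cystic kidneys was therefore not shown for any of the 9 genes.

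Other genes of the cascade moved in both directions with cysts. Of 19 further renin-angiotensin pathway genes, 16 were tested, and 6 were lower and 5 higher in cystic *Pkd2*+/+ kidneys, against 14.2% and 16.9% of all genes. *Klk1*, tissue kallikrein, was at 2799, 2899 and 2229 CPM without cysts and 506, 338 and 441 CPM with them (log2 -2.62 ± 0.15, edgeR adjusted p = 5.4e-09), although it belongs to a family of near-identical mouse genes that can share reads. *Anpep*, aminopeptidase N, fell by 0.69 on the log2 scale (edgeR adjusted p = 1.29e-05), and *Rnpep*, aminopeptidase B, rose by 0.65 (edgeR adjusted p = 5.93e-06). With Δ17/Δ17, 5 were lower and 3 higher in cystic kidneys, led by *Klk1* (-2.22), *Rnpep* (0.49), *Ctsa* (-0.52) and *Anpep* (-0.33). *Anpep* was not past the threshold there under 7 of 18 alternatives: with library totals (-0.18, edgeR adjusted p = 0.118), with limma-trend (-0.19, limma adjusted p = 0.101), without mouse 24 (-0.30, edgeR adjusted p = 0.0541), and without mouse 30 alone or in each of the 3 fits that leave it out with other mice (-0.24, edgeR adjusted p from 0.0621 to 0.0716). *Rnpep* and *Ctsa* overlap genes on the other strand.

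In cystic kidneys 2 of these 16 were higher with the deletion, among them *Anpep*. It was at 209, 218 and 175 CPM in cystic Δ17/Δ17 kidneys, above the 151, 152 and 132 CPM of the cystic *Pkd2*+/+ kidneys (0.47 ± 0.09, edgeR adjusted p = 0.0131). Its call was lost without mouse 27, 28 or 29, with edgeR adjusted p from 0.0725 to 0.0831.

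The brush border peptidases as a list went the way of *Enpep*. All 10 other brush border peptidases were lower in cystic than noncystic *Pkd2*+/+ kidneys (median log2 change -1.12), and 9 of 10 with Δ17/Δ17 (median -0.52). The 4 with the smallest adjusted p in *Pkd2*+/+ kidneys were *Ggt1* (-1.18), *Dpep1* (-1.37), *Cltrn* (-1.49) and *Xpnpep2* (-1.30), and with Δ17/Δ17 they were *Dpep1* (-1.15), *Ggt1* (-0.79), *Folh1* (-1.29) and *Cltrn* (-0.998). In cystic kidneys 6 of the 10 were higher with the deletion, among them the metalloprotease subunits *Mep1b* (0.88 ± 0.14, edgeR adjusted p = 0.0041) and *Mep1a* (0.63 ± 0.13, edgeR adjusted p = 0.0184) and the aminopeptidase P gene *Xpnpep2* (0.94 ± 0.16, edgeR adjusted p = 0.0057). *Mep1a* lost its call without mouse 27, 28 or 29 (edgeR adjusted p of 0.064, 0.106 and 0.0831). *Anpep* belongs to this list as well as to the one above.

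Proximal tubule markers moved with these genes. All 12 were lower in cystic *Pkd2*+/+ kidneys and 11 of 12 in cystic Δ17/Δ17 kidneys, and 3 of 12 were higher in cystic Δ17/Δ17 than in cystic *Pkd2*+/+ kidneys. Their summed level was 8618 to 10890 CPM and 10108 to 11344 CPM in the noncystic groups, 3133 to 4658 CPM in cystic *Pkd2*+/+ and 4236 to 5765 CPM in cystic Δ17/Δ17 kidneys. The part of proximal tubule content in the changes of *Agt*, *Ace*, *Agtr1a*, *Enpep* and *Mme* was not tested.

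Other genes of the renin cell moved in both directions with cysts. Of 16 renin cell and renin lineage genes, 5 were lower and 2 higher in cystic *Pkd2*+/+ kidneys, against 14.2% and 16.9% of all genes, with a median log2 change of -0.35 against 0.02. With Δ17/Δ17, 0 were lower and 3 higher, against 10.2% lower and 3164 of 24642 higher of all genes, with a median of -0.083 against -0.0032. The soluble guanylate cyclase subunit *Gucy1a1* (0.75 and 0.80) and the connexin 45 gene *Gjc1* (0.69 and 0.82) rose in both. The transcription factor genes *Ebf1* (-0.48) and *Nr2f2* (-0.33) fell in *Pkd2*+/+ kidneys, where both missed the threshold with library totals (edgeR adjusted p of 0.0541 and 0.145), and *Nr2f2* also without mice 25 and 30 (edgeR adjusted p = 0.054). *Rbpj*, a Notch effector gene that helps maintain renin cells, rose with Δ17/Δ17 (0.30, edgeR adjusted p = 0.0165, and 0.0683 without mouse 22, 0.0643 without mouse 23 and 0.0505 without mouse 28). *Akr1b7*, a renin cell marker that is also abundant in the adrenal cortex, was at 14.2 CPM in mouse 30 and between 1.20 and 5.30 CPM in the other 11. Mesangial and vascular smooth muscle markers summed to 381 to 481 CPM in noncystic and 673 to 1011 CPM in cystic kidneys, of which *Acta2* made up 76.1 to 132 CPM and 298 to 554 CPM. Of these 9 markers 5 were higher and 1, *Itga8*, was lower in cystic *Pkd2*+/+ kidneys, and 4 higher and 0 lower with Δ17/Δ17. Podocyte markers summed to 595 to 718 CPM and 341 to 466 CPM, and endothelial markers to 997 to 1161 CPM and 640 to 964 CPM. Of 6 podocyte markers 5 were lower and 1 higher in cystic *Pkd2*+/+ kidneys, and 4 lower and 0 higher with Δ17/Δ17. Of 6 endothelial markers 4 were lower and 0 higher in cystic *Pkd2*+/+ kidneys, and 2 lower and 0 higher with Δ17/Δ17. The part of these cell types in the fall of *Ren1* was not tested.

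In cystic kidneys 1 of the 16 renin cell genes was higher with the deletion, the calcium-sensing receptor gene *Casr* (0.80 ± 0.19, edgeR adjusted p = 0.0384), which is also expressed in the thick ascending limb. *Casr* was not past the threshold without mouse 26, 27, 28 or 29, with edgeR adjusted p from 0.0708 to 0.219. Among 8 genes listed for the macula densa, a structure that signals to the renin cells, *Ptges* (-0.55 and -0.85) and *Avpr1a* (-0.47 and -0.70) fell with cysts in *Pkd2*+/+ and Δ17/Δ17 kidneys. *Ptger4* (0.65 and 0.65) rose, and the other 5 did not pass in either comparison. Which cells of the whole kidney these 3 changes come from was not tested. The fall of *Avpr1a* in *Pkd2*+/+ kidneys was not past the threshold with library totals (edgeR adjusted p = 0.0672). That of *Ptges* missed it only without mice 25, 27 and 30, a fit that leaves mouse 26 alone in the cystic *Pkd2*+/+ group. The deletion changed 0 of these 8 in cystic kidneys by edgeR, with 3 at an unadjusted p under 0.05.

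The vacuolar ATPase, of which *Atp6ap2* is an accessory subunit, fell broadly. Of 20 subunit genes, 15 were lower in cystic than noncystic *Pkd2*+/+ kidneys and 1 was higher, and 15 were lower and 0 higher with Δ17/Δ17. The fall was -0.67 and -0.58 for *Atp6v1e1*, -0.84 and -0.86 for *Atp6v0a4* and -0.61 and -0.53 for *Atp6v1d* in the 2 comparisons, -0.63 for *Atp6v1g1* in the first and -0.75 for *Atp6v0c* in the second. In cystic kidneys 0 of 20 passed the test for the deletion by edgeR, with 2 at an unadjusted p under 0.05.

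Downstream of angiotensin II, the kidney genes of the aldosterone pathway split. Of 12, 6 were higher and 5 lower in cystic *Pkd2*+/+ kidneys, against 16.9% and 14.2% of all genes. With Δ17/Δ17, 4 were higher and 5 lower, against 3164 of 24642 genes higher and 10.2% lower. The glucocorticoid-inactivating enzyme gene *Hsd11b2* rose by 1.75 and 1.37 on the log2 scale and the sodium channel subunit *Scnn1g* by 1.30 and 1.06, and *Scnn1b* rose by 1.26 in *Pkd2*+/+ kidneys. *Tsc22d3*, a corticosteroid-induced gene, fell by 1.08 and 0.93, and the kinase gene *Wnk1* by 1.15 with Δ17/Δ17. The deletion changed 0 of the 12 in cystic kidneys by edgeR, with 5 at an unadjusted p under 0.05.

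**Figure D4:**
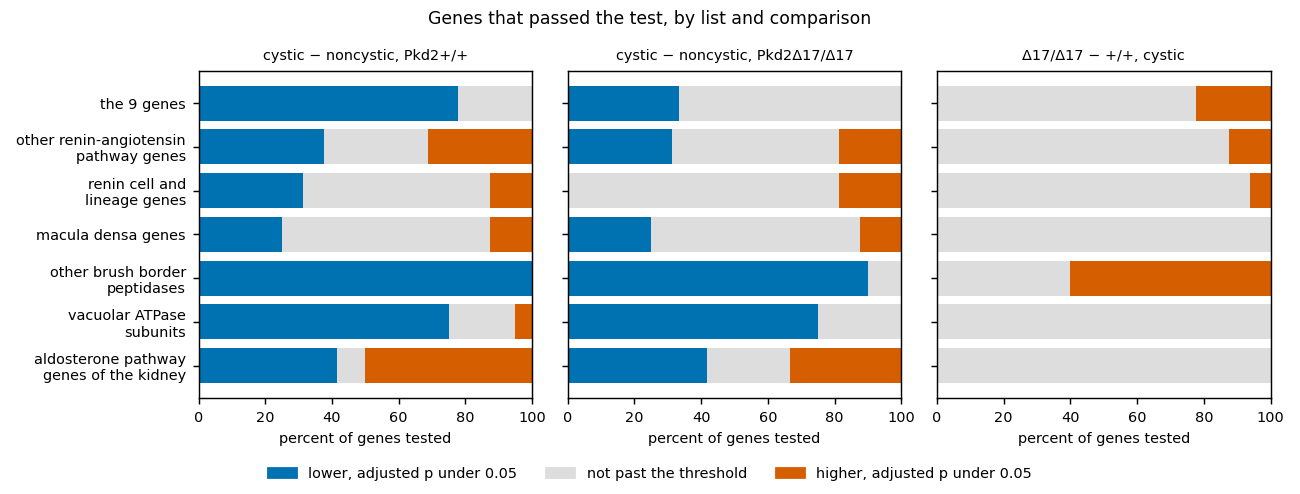
Share of the tested genes of each list that were lower (blue), higher (orange) or not past the adjusted threshold (grey) in 3 comparisons. Lower genes prevail among the 9 genes (7 of 9), the brush border peptidases (10 of 10) and the vacuolar ATPase subunits (15 of 20) in *Pkd2*+/+ kidneys, and the deletion in cystic kidneys called higher genes in 4 of the 7 lists.

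Across the 12 mice, the genes whose log2 CPM followed each member most closely were read from 13691 genes, as a description in which all mice share the contrast between cystic and noncystic kidneys. *H2-Q6* (Pearson r = 0.978) and *Mgll* (0.976) followed *Ren1*, *Klhdc9* (0.972) and *Mro* (0.970) followed *Agt*, and *Rdh19* (0.964) and *Slc5a6* (0.959) followed *Ace*. *Sfxn2* (0.989) and *Slc19a3* (0.982) were closest to *Agtr1a*, *Slc52a3* (0.987) and *Arhgap18* (0.983) to *Enpep*, *Chst3* (0.933) and *A4gnt* (0.925) to *Mme*, and *Qprt* (0.966) and *Plpp6* (0.965) to *Atp6ap2*. Within groups, on deviations from the group means, the same pairs had r between 0.786 (*A4gnt* with *Mme*) and 0.964 (*Slc52a3* with *Enpep*). The pairs were picked by r over these same 12 mice, so their values within groups are not independent of that choice.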

How the data were processed

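Reads from whole kidneys of 12 mice were trimmed by the authors with Trim Galore 0.6.3 and aligned to GRCm38 with STAR 2.5.3a, whose gene counting used Ensembl gene models. The deposited values are raw whole-number counts per gene, without normalization. The strand setting is not given in the sources used here. Genes without a name (343) held 0.0225% of the reads. Samples were grouped by their labels.

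The tests used edgeR 4.0.16 under R 4.3.3: average log2CPM of at least -3, TMM scaling, 1 mean per group over 12 mice (8 residual degrees of freedom), quasi-likelihood tests, Benjamini-Hochberg adjustment over 24642 genes and a threshold of 0.05. CPM values are TMM-normalised. The fits were tested on simulated data. Alternatives were DESeq2 1.42.0, limma-trend (limma 3.58.1, prior count 3), other scalings and filters, fits of the compared groups alone, a covariate for *Xist* and leaving out each mouse. Fits without mice 25, 27 and 30 were chosen after seeing the data. The median SE was 0.11 (log2) over 13691 genes with average log2CPM of at least 1. No 2 mice of a group agreed within sampling noise (chi-square per degree of freedom at least 9.65).

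The 9 genes and the gene lists were chosen with earlier results of these data known. Named besides the 9 were, per pathway list and contrast, up to 4 genes past the threshold with the smallest adjusted p, and per member the 2 genes of highest correlation. A gene that the rule names is not reported here. *Acta2*, *Akr1b7*, *Alb*, *Cma1*, *Cyp11b2*, *Itga8*, *Kit* and the named fibroblast markers were chosen after their values were seen. Marker lists covered proximal tubule, mesangium and vascular smooth muscle, podocyte, endothelium, fibroblast, macrophage, mast cell, adrenal gland, fat tissue and liver.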

Additional observations from a re-analysis of the deposited data

How the results depend on the processing

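No paired analysis was made, because the sample titles give each mouse its own number and name no litter or pairs between groups. The number of the 9 genes that passed the test for cystic against noncystic *Pkd2*+/+ kidneys stayed between 5 and 7 under its 18 alternatives. For the deletion in cystic kidneys it was 2, and it was 5 with the DESeq2 Wald test, 5 with no filter and 5 without mice 25 and 30. It was 4 with *Xist* as a covariate, 1 with the compared groups only, and 0 to 4 when single mice were left out. For cystic against noncystic Δ17/Δ17 kidneys it was 3, and 5 with the DESeq2 Wald test or no filter. For the interaction it was 0, and 2 with no filter (*Ren1* and *Ace*), a fit that also raised the interaction calls over all genes from 3 to 566. The causes were not tested.

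Of 803 values for single members, 733 kept direction and side of the threshold, 17 lost it, 26 gained it and 27 changed sign, and of 918 for named list genes 882 kept both and 36 lost the threshold. The sign changes were in comparisons that did not pass. When single mice were left out, the deletion in noncystic kidneys ran from -0.014 to 0.19 for *Agt*, -0.042 to 0.13 for *Agtr1a*, -0.90 to 0.999 for *Agtr1b*, -0.028 to 0.046 for *Mme* and -0.92 to 0.44 for *Mas1*. It also changed sign with *Xist* as a covariate for *Mme* (-0.034) and *Mas1* (-0.077) and with limma-trend for *Mas1* (-0.055). Cystic against noncystic Δ17/Δ17 kidneys ran from -0.23 to 0.0086 for *Ace* (above 0 without mouse 30) and -0.043 to 0.10 for *Mme*. *Ace* was also above 0 with library totals (0.025), with limma-trend (0.017) and without mice 27 and 30 (0.0086), 25 and 30 (0.0088) or all 3 (0.0085), and *Mme* below 0 with DESeq2 size factors or the DESeq2 Wald test (-0.0039). Without mice 25, 27 and 30 the *Pkd2*+/+ values of *Agtr1b* (-0.13) and *Mas1* (-0.11) changed sign, as did the interaction of *Agtr1b* without mice 25 and 30 (-0.0050). *Agtr1b* passed the threshold in Δ17/Δ17 kidneys with library totals (2.78), DESeq2 (2.66), no filter (2.62), and without mouse 28 (2.96) or 29 (3.13). Fits that left 1 mouse in a group assume that it varies like the others. Depth limits *Agtr1b* and *Mas1*, which had at most 10 counts per mouse apart from *Agtr1b* in mouse 30.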

Other observations

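Set against the summed proximal tubule markers of the same kidney, a ratio chosen after the values were seen and given with no test, the members went different ways. *Ren1* had 9.99 to 22.9 CPM per 1000 CPM of markers without cysts and 9.95 to 16.2 with them, ranges that overlapped. The granular cells that release renin are not among the cells these markers stand for, so this is not a level per renin cell. *Agtr1a* was at 4.19 to 5.12 in noncystic, 5.64 to 6.86 in cystic *Pkd2*+/+ and 6.28 to 7.72 in cystic Δ17/Δ17 kidneys. For *Enpep* the ratio was 16.6 to 19.6 without cysts and 21.4 to 32.2 with them, and for *Mme* 22.8 to 29.9 and 43.7 to 73.7. For *Atp6ap2* it was 12.6 to 18.7 without cysts and 22.7 to 36.1 with them, and for *Agt* the ranges overlapped, with a lowest value of 9.46 without cysts and values of 11.9 to 21.6 with them. Relative to these markers *Agtr1a*, *Enpep*, *Mme* and *Atp6ap2* were thus higher in all 6 cystic than in all 6 noncystic kidneys. In CPM *Agtr1a* and *Enpep* fell in both comparisons and *Mme* and *Atp6ap2* in *Pkd2*+/+ kidneys. The summed markers were themselves lower in all 6 cystic kidneys, so any gene that fell less than they did has a higher ratio there. How many other genes do so was not computed. *Ace* was at 20.1 to 23.6 in noncystic, 22.6 to 46.7 in cystic *Pkd2*+/+ and 37.8 to 47.6 in cystic Δ17/Δ17 kidneys.

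The other tissue markers gave further values. Fibroblast markers summed to 1517 to 1938 CPM in noncystic and 2416 to 4074 CPM in cystic kidneys. Of these 6, the collagen genes *Col1a1*, *Col1a2* and *Col3a1* were higher and *Pdgfra* and *Lum* lower in cystic *Pkd2*+/+ kidneys, and 4 were higher and 0 lower with Δ17/Δ17. Macrophage markers summed to 112 to 134 CPM in noncystic and 215 to 392 CPM in cystic kidneys. The 6 macrophage markers were all higher in both cystic groups, and 3 of the 6 were lower in cystic Δ17/Δ17 than in cystic *Pkd2*+/+ kidneys. Fat tissue markers summed to 533 to 1199 CPM in noncystic and 143 to 362 CPM in cystic kidneys. Of these 6, 5 were lower and 1 higher in cystic *Pkd2*+/+ kidneys, and 4 lower and 1 higher with Δ17/Δ17. Mast cell markers, which include the angiotensin II-forming chymase *Cma1* at 0 to 0.330 CPM, summed to 37.5 to 52.0 CPM in noncystic and 44.9 to 81.8 CPM in cystic kidneys, nearly all of it *Kit* (34.2 to 48.0 CPM and 42.6 to 79.8 CPM), which is not particular to mast cells. Of the 6 mast cell markers tested, *Kit* was higher in cystic *Pkd2*+/+ kidneys and the other 5 had log2 changes below 0, which did not pass, with a median over the 6 of -1.35. Liver markers summed to 149 to 192 CPM in noncystic and 60.5 to 553 CPM in cystic kidneys. Of these 5, 2 were higher and 2 lower in cystic *Pkd2*+/+ kidneys, and 0 passed with Δ17/Δ17.

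Among the 7 expressed members, deviations from the group means over 12 mice gave Pearson r, as a description with no test, of 0.806 for *Ace* with *Mme*, 0.699 for *Enpep* with *Mme*, 0.657 for *Atp6ap2* with *Enpep*, 0.619 for *Enpep* with *Ace*, 0.606 for *Agt* with *Mme*, 0.598 for *Agt* with *Ace* and 0.546 for *Enpep* with *Agt*. *Ren1* had -0.122 with *Agt* and -0.245 with *Ace*.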
